A study of Mus musculus with 17 samples.

Results

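The unfolded protein response was described here through 10 genes chosen by name from the table of read counts, out of 48795 genes in it. They are 4 genes of its sensors and transcription factors, Atf6, Atf6b, Ern1 and Xbp1, and 6 genes that act in protein folding and clearance in the endoplasmic reticulum (ER), Hspa5, Hsp90b1, Calr, Pdia4, Dnajb9 and Herpud1. All 10 were found, and all 10 passed the minimum level used for testing in every comparison. The choice was made by the names of the genes, with earlier results of these data known.

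The samples were 17 mouse kidney cortices in 4 groups. WT (n = 5) were wild type mice. GCERAd (n = 5) were Atf4 knockout mice, in which a Cre recombinase activated by tamoxifen and driven by part of the Ggt1 promoter, a promoter active in proximal tubules, removed floxed Atf4; these mice received tamoxifen on 2 days at 6 weeks of age, and tissue was taken 1 month after the first injection, after a fast of 16 h. TRACK (n = 3) is a transgenic mouse model of kidney cancer, and GCERAdT (n = 4) are mice labelled as TRACK with the Atf4 knockout. The methods used here do not give the age, the tamoxifen treatment or the transgene details of TRACK and GCERAdT mice, nor say whether WT mice received tamoxifen. Cre acts in proximal tubules, whereas a cortex also holds other cells, so fewer cells of a type and less RNA per cell cannot be told apart in these libraries. The labels number each library as a mouse, although the protocol speaks of 3 to 4 mice per cohort, fewer than the 5 libraries of WT and of GCERAd. No 2 libraries of a group agreed within counting noise (lowest mean chi-square per gene 20.3, against 1 for the same library counted again), so none is a copy of another, but 2 libraries made separately from 1 mouse would differ as well. Libraries were counted separately as labelled, and if some share a mouse, the p-values are too small.

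The unfolded protein response is the reaction of a cell to unfolded protein in the ER. It is sensed by 3 membrane proteins. IRE1, encoded by Ern1, splices Xbp1 mRNA and so allows an active transcription factor to be made; ATF6, and its relative ATF6B, are cut from the membrane in the Golgi and move to the nucleus; PERK phosphorylates eIF2α, which favours translation of ATF4. ATF6 and XBP1 raise transcription of chaperones and of factors of ER-associated degradation, while ATF4 acts on amino acid supply, redox balance and Ddit3. The proximal tubule, whose cells make and recycle large amounts of membrane transporters, depends on the folding capacity of the ER. Gene counts measure the amount of mRNA; they show neither Xbp1 splicing nor cleavage of ATF6.

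Total counts on genes were between 53688512 and 71364561 per library, and the depths of the groups overlapped. Values are CPM, counts scaled to library size with edgeR's TMM factors, unless FPKM, which also allows for exon length, is named. Atf4, the targeted gene, had between 74.4 and 100.1 CPM in WT and between 56.0 and 77.0 CPM in GCERAd (a log2 difference of -0.38 ± 0.11, standard error, with edgeR's adjusted p = 0.0218). In the libraries labelled GCERAdT, Atf4 had between 79.6 and 104.2 CPM and was not lower than in TRACK, with 77.2 to 93.8 CPM (a log2 difference of 0.17 ± 0.11, standard error, with adjusted p = 0.367). Exons of Atf4 are not separated in the counts, and every direction given below for GCERAdT is that of the libraries so labelled. Xist, transcribed from the inactive X chromosome, was between 148.7 and 417.8 CPM in WT and at most 6.07 CPM in the other groups, and Ddx3y, on the Y chromosome, had no count in WT and between 49.8 and 80.3 CPM elsewhere. In comparisons with WT the genotype and this sex-linked difference cannot be told apart, whereas it does not separate TRACK, GCERAd and GCERAdT from each other. The summed level of 10 proximal tubule markers, all detected in every group, was between 8320 and 9982 CPM in WT, 10172 and 12862 CPM in GCERAd, 5708 and 6613 CPM in TRACK, and 5911 and 7010 CPM in GCERAdT. Slc34a1 weighed most in this sum, with medians of 3077 CPM in WT, 4045 CPM in GCERAd, 1165 CPM in TRACK and 1534 CPM in GCERAdT. The markers did not all move alike. In GCERAd over WT, edgeR called 2 of the 10, both higher, and Slc5a12 was at -0.23 without being called. The libraries also fell into 2 ranges by their share of counts on processed pseudogenes, at most 0.0380% in WT 1, 3, 4 and 5, GCERAd 1 and 2, and GCERAdT 1 and 2, and at least 0.0574% in the others. All 3 TRACK libraries were in the higher range, so this property and the TRACK genotype are close to inseparable in comparisons with WT.

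The levels of the 10 genes spanned more than a factor of 30 per length of transcript. In WT cortices Calr, encoding the lectin chaperone calreticulin, was the highest, at 144.9 ± 21.97 FPKM (SD, n = 5), followed by Herpud1, a membrane component of ER-associated degradation, at 131.03 ± 15.41 FPKM. Hspa5, encoding the master chaperone BiP, had 86.01 ± 10.92 FPKM, and Hsp90b1, encoding GRP94, had 72.4 ± 8.40 FPKM. Xbp1 (43.5 ± 3.88 FPKM), Pdia4, a protein disulfide isomerase (35.2 ± 4.75 FPKM), and Dnajb9, a co-chaperone of BiP known as ERdj4 (26.2 ± 2.89 FPKM), formed a middle range. Atf6b (12.7 ± 1.30 FPKM), Atf6 (8.22 ± 0.248 FPKM) and Ern1 (4.28 ± 0.311 FPKM) were the lowest. Over all 17 samples Calr ranked 285 and Ern1 6994 among 11471 genes with a mean of at least 1 FPKM.

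The order in WT was Calr, Herpud1, Hspa5, Hsp90b1, Xbp1, Pdia4, Dnajb9, Atf6b, Atf6 and Ern1. Neighbours whose WT values overlapped were Calr and Herpud1, Hspa5 and Hsp90b1, Xbp1 and Pdia4, and Pdia4 and Dnajb9. GCERAd had the same order, with overlap also between Atf6b and Atf6. In TRACK, Herpud1 came first, at 176.7 ± 5.45 FPKM (n = 3), above every TRACK value of Calr, at 124.8 ± 10.57 FPKM; Pdia4 and Xbp1, and Atf6 and Atf6b, changed places there with overlapping values. In GCERAdT the order was again that of WT, but Herpud1, at 93.2 ± 10.95 FPKM (n = 4), lay below every Calr value and overlapped with Hspa5, at 77.7 ± 5.53 FPKM.

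**Figure D1:**
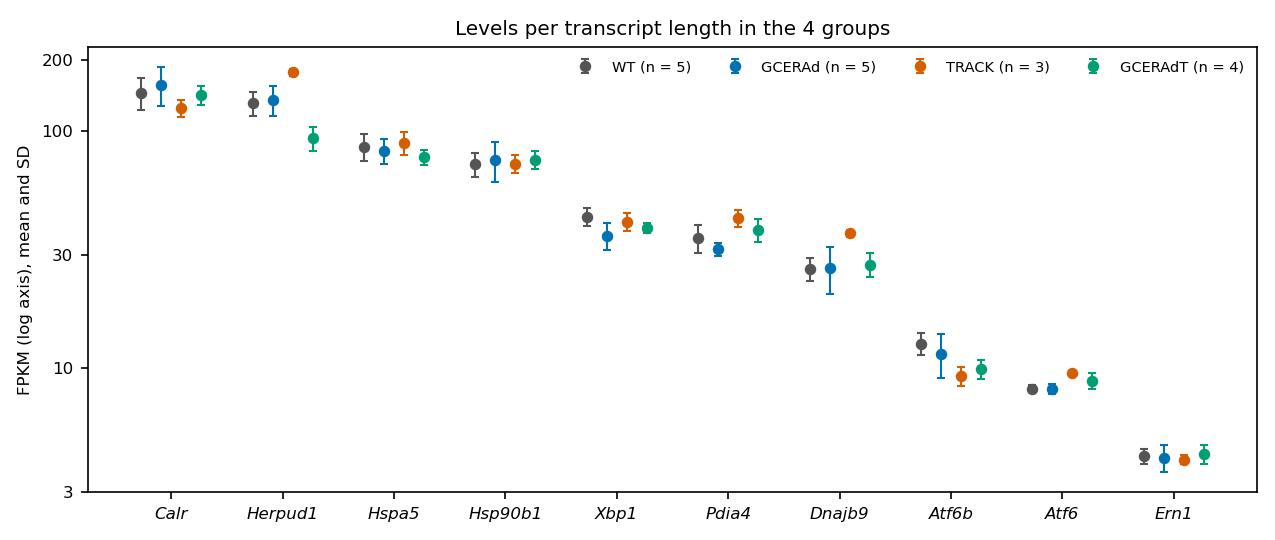
Level of each of the 10 genes in FPKM (log axis) in the 4 groups, with points for the mean and bars for the SD over samples. Levels run from Calr at the left to Ern1 at the right; the TRACK and GCERAdT points of Herpud1, at 176.7 and 93.2 FPKM, are the pair that lie furthest apart for 1 gene.

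Promoters of ER chaperone genes are known for DNA elements through which ATF6 and XBP1 act, and promoter sequences are shown for the 3 chaperones whose levels moved together between mice (described further on) and for Herpud1, on which the comparisons turn. Promoters of 9 of the 10 genes were matched by symbol in RefSeq (GRCm38.p6), and the gene without an entry is Atf6. Each line gives the 250 bases before the annotated start, 5′ to 3′ on the strand of the gene, and capitals mark matches to the ER stress response element (ERSE, CCAAT and CCACG with 9 bases of any kind between them), to ERSE-II (ATTGG and CCACG with 1 base of any kind between them) or to the C/EBP-ATF response element that ATF4 dimers can bind (CARE, TGATGNAA), all searched on both strands.
Hspa5, chr2:34771840-34772089, plus strand: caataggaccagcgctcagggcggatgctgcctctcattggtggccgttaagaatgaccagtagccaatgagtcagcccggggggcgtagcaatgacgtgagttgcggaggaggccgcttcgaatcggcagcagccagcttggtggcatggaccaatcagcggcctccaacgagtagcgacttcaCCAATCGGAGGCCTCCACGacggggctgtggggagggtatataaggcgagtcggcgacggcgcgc
Hsp90b1, chr10:86705445-86705694, minus strand: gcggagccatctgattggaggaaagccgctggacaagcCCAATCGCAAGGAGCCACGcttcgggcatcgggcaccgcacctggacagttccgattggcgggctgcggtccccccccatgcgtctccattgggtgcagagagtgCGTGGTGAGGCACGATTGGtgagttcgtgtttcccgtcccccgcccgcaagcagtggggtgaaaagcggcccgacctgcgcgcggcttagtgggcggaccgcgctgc
Calr, chr8:84846932-84847181, minus strand: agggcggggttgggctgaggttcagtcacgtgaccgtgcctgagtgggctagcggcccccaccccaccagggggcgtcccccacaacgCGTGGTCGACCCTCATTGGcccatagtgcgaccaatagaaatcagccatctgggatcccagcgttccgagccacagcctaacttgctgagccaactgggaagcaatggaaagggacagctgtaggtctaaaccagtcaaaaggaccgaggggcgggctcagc
Herpud1, chr8:94386179-94386428, plus strand: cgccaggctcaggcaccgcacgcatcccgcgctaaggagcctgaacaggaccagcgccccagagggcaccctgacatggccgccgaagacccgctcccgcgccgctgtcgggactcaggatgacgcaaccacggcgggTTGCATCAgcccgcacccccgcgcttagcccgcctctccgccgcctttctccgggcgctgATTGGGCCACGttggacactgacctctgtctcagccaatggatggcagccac

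Counted from the start site, the ERSE of Hspa5 lay from -65 to -47. Hsp90b1 had 2 matches, from -212 to -194 and, in the opposite orientation, from -107 to -89. Calr had 1 in the opposite orientation from -162 to -144. Herpud1 was the only 1 of the 9 with ERSE-II, from -52 to -42, and the only 1 with CARE, in the opposite orientation from -112 to -105. An XBP1 site core (TGACGTGG) was in none of the 9 windows, and Atf6b, Xbp1, Ern1, Pdia4 and Dnajb9 had none of the 4 motifs. Among 32851 RefSeq promoters of 250 bases before and 50 after the start, 0.119% held ERSE, 0.0365% ERSE-II, 0.676% the XBP1 core and 3.97% CARE. A match is a description of letters and does not show that a factor binds there.

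Among the sensors and transcription factors, Atf6 and Atf6b passed the test in TRACK over WT, while Xbp1 and Ern1 passed in none of the 4 comparisons. Atf6 (chromosome 1, 170704674 to 170867771, GRCm38) had 74.0, 72.8, 80.1, 76.7 and 74.9 CPM in WT 1 to 5 and 80.2, 82.2, 77.4, 78.5 and 76.9 CPM in GCERAd 1 to 5. In TRACK it had 87.2, 89.2 and 85.6 CPM, and in GCERAdT 84.3, 76.3, 73.2 and 79.9 CPM. All TRACK values were above every value of the other 3 groups. Atf6b (chromosome 17, 34647146 to 34655074), whose product is a weaker activator related to ATF6, went the other way, with 33.8, 30.1, 40.6, 36.4 and 34.1 CPM in WT and 23.4, 25.7 and 26.7 CPM in TRACK. In GCERAd it was uneven, with 36.0, 39.6 and 36.9 CPM in mice 1 to 3 and 25.3 and 27.8 CPM in mice 4 and 5. In GCERAdT it had 26.9, 29.2, 24.6 and 24.2 CPM, which overlaps with TRACK.

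Xbp1 (chromosome 11, 5520659 to 5525893) had 140.8, 146.1, 161.0, 123.3 and 133.7 CPM in WT, and 137.0, 122.7, 133.2, 110.0 and 110.4 CPM in GCERAd. It had 132.5, 148.5 and 119.8 CPM in TRACK and 111.1, 121.4, 127.1 and 126.5 CPM in GCERAdT, so that every pair of groups overlapped. Ern1 (chromosome 11, 106394650 to 106487852) had between 30.7 and 38.2 CPM in WT, 30.8 and 42.4 CPM in GCERAd, 31.1 and 35.6 CPM in TRACK, and 31.5 and 37.8 CPM in GCERAdT. The ranges of all 4 groups overlapped.

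The major chaperones were abundant, and most of their groups overlapped. Hspa5 (chromosome 2, 34771970 to 34777547) had 331.1, 370.6, 429.7, 302.5 and 380.5 CPM in WT, and 387.0, 369.2, 401.4, 328.9 and 329.2 CPM in GCERAd. It had 360.2, 349.9 and 405.9 CPM in TRACK and 317.3, 294.7, 303.1 and 344.0 CPM in GCERAdT; the highest GCERAdT value was just below the lowest TRACK value. Hsp90b1 (chromosome 10, 86690209 to 86705509) had between 249.9 and 346.1 CPM in WT, 250.8 and 373.1 CPM in GCERAd, 278.2 and 307.6 CPM in TRACK and 265.1 and 317.2 CPM in GCERAdT. It shares 415 exonic bases with 1810014B01Rik on the opposite strand, and whether strand was used in counting is not stated, so a part of its counts is uncertain. Calr (chromosome 8, 84841850 to 84846934) had between 329.6 and 517.8 CPM in WT, 386.7 and 548.6 CPM in GCERAd, 336.2 and 376.0 CPM in TRACK and 367.3 and 448.9 CPM in GCERAdT. Pdia4 (chromosome 6, 47796141 to 47813430) had between 70.4 and 104.2 CPM in WT and 70.3 and 91.5 CPM in GCERAd, and 100.1, 98.0 and 108.0 CPM in TRACK. In GCERAdT it had 84.7, 85.4, 79.3 and 103.03 CPM, 1 of which lay within the TRACK values. Summed over the 6 chaperone and degradation genes, the level was 1526 ± 156.8 CPM in WT, 1631 ± 96.2 CPM in GCERAd, 1619 ± 68.1 CPM in TRACK and 1363 ± 107.2 CPM in GCERAdT.

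Dnajb9 and Herpud1 separated the groups most clearly. Dnajb9 (chromosome 12, 44205559 to 44210326) had 66.7, 77.4, 58.4, 63.6 and 66.3 CPM in WT, 93.0, 93.3 and 94.1 CPM in TRACK, and 57.9, 62.2, 70.9 and 76.4 CPM in GCERAdT. TRACK lay above both other groups with no overlap. In GCERAd it had 59.8, 52.4 and 63.0 CPM in mice 1 to 3 and 91.0 and 88.3 CPM in mice 4 and 5, the latter close to TRACK.

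Herpud1 (chromosome 8, 94386438 to 94395377) had 345.2, 323.0, 265.3, 272.9 and 316.7 CPM in WT, and 266.9, 320.0, 287.4, 395.4 and 383.4 CPM in GCERAd. It had 424.2, 399.2 and 398.7 CPM in TRACK and 205.4, 202.7, 182.4 and 242.9 CPM in GCERAdT. TRACK was above, and GCERAdT below, every sample of the other groups.

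**Figure D2:**
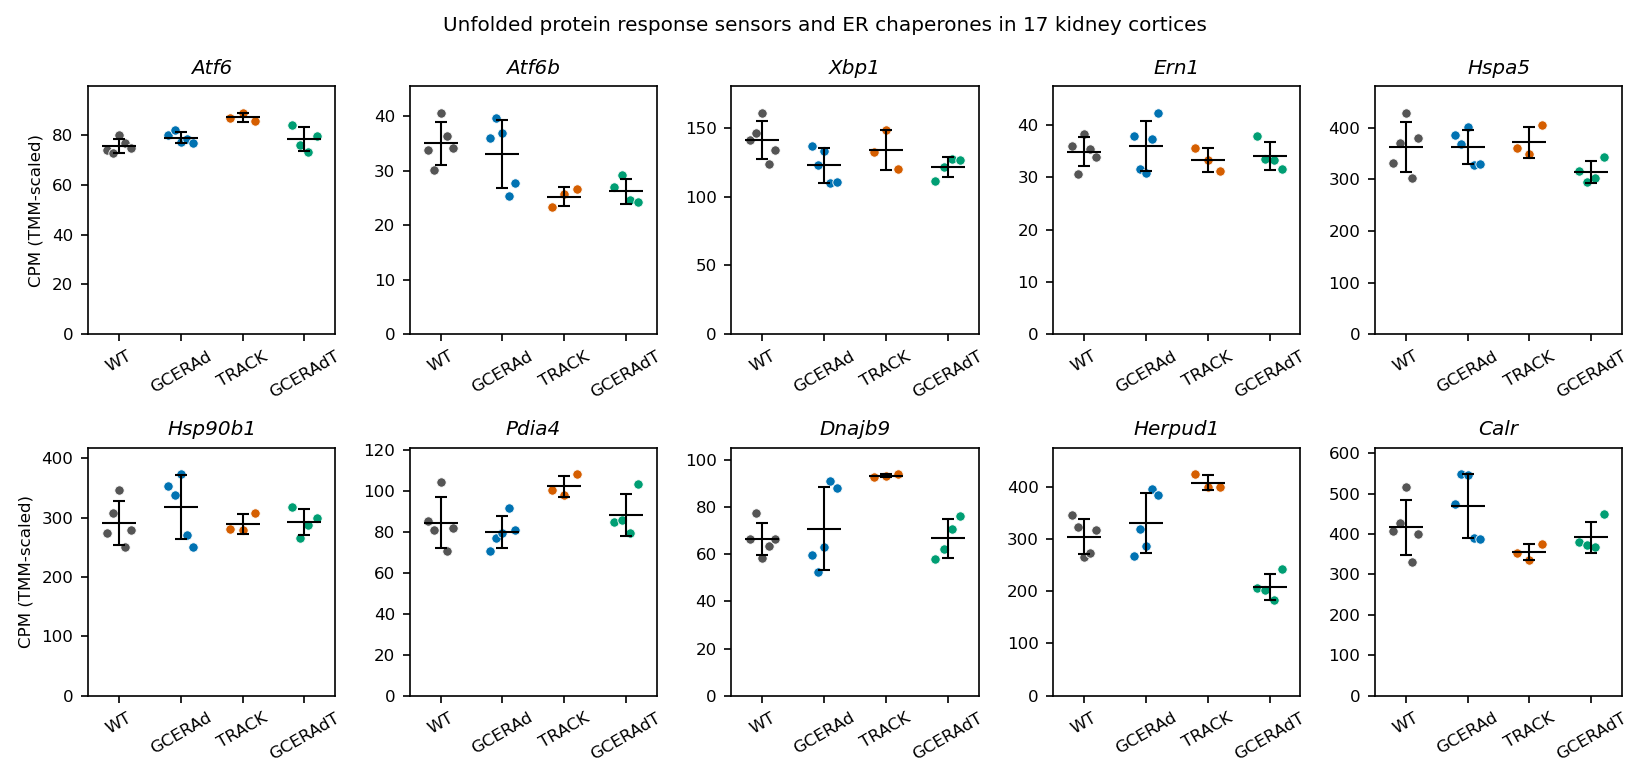
CPM of each gene in every cortex by group (points), with the mean and SD (bars); each panel has its own linear axis from 0. The 3 TRACK points of Dnajb9 and Herpud1 lie above all WT points, and the 4 GCERAdT points of Herpud1 (182.4 to 242.9 CPM) lie below all others. GCERAd 4 and 5 lie outside the values of GCERAd 1 to 3 for Atf6b, Xbp1, Hspa5, Hsp90b1, Dnajb9, Herpud1 and Calr, and narrowly for Pdia4.

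The first comparison, GCERAd over WT, asks what changed in cortices after loss of Atf4 from proximal tubules. None of the 10 genes passed the test, whereas 27.6% of 11581 genes tested did, 14.1% higher and 13.5% lower. To pass, a gene needed 0.05 or less from the quasi-likelihood F test of edgeR after adjustment across the genes tested. DESeq2 also called none, and 1 gene, Xbp1, had an unadjusted p below the threshold, at -0.21 on the log2 scale (standard error 0.09, 95% interval -0.41 to -0.01, adjusted p = 0.117). The other log2 fold changes were between -0.09 for Pdia4 and 0.17 for Calr. For Hspa5 the value was -0.01 with an interval from -0.23 to 0.22, and for Herpud1 it was 0.11 with an interval from -0.15 to 0.37, which bounds the size of a change that these 10 samples could have missed. No gene had groups without overlap, against 20% of genes tested, and the median of the 10 values was 0.05. Marker sums moved in this comparison too, with 8 markers of the thick ascending limb and distal nephron between 6858 and 9292 CPM in WT and 4512 and 5495 CPM in GCERAd, and 4 fibroblast markers between 74.4 and 86.9 CPM in WT and 90.3 and 147.3 CPM in GCERAd; their part was not tested. GCERAd 4 and 5 stood apart from GCERAd 1 to 3 here; without them Hsp90b1 was called (log2 fold change 0.29, adjusted p = 0.0426) and Herpud1 was at -0.06.

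TRACK over WT compares the cancer model with wild type. Of the 10 genes, 4 passed the test, against 45.6% of 11967 genes tested, and 3 of them were higher and 1 lower, against 23% and 22.6% of genes. Dnajb9 rose by 0.49 on the log2 scale (standard error 0.09, adjusted p = 0.0018) and Herpud1 by 0.42 (standard error 0.10, adjusted p = 0.0058). Atf6 rose by 0.20 (standard error 0.06, adjusted p = 0.0212), while Atf6b fell by 0.47 (standard error 0.10, adjusted p = 0.003). These were also the 4 genes whose groups did not overlap, against 44.3% of genes tested, so the share of the 10 genes is near that of all genes. The median of the 10 log2 fold changes was 0.01, against -0.01 for all genes tested. Pdia4, at 0.27 (standard error 0.11, adjusted p = 0.0646), passed with DESeq2 and not with edgeR on all libraries. With 1 library left out at a time it was between 0.21 and 0.36. The adjusted p of edgeR was then between 0.00935 and 0.17, so it passed in at least 1 of these fits. Hspa5 was at 0.03 with an interval from -0.21 to 0.27. With the pseudogene share range as a covariate, none of the 10 passed: Dnajb9 was at 0.27 (adjusted p = 0.0937), Herpud1 at 0.33 (adjusted p = 0.151), Atf6 at 0.26 (adjusted p = 0.055) and Atf6b at -0.26 (adjusted p = 0.158). Atf6 also missed the threshold without TRACK 1 (adjusted p = 0.0622) or TRACK 2 (adjusted p = 0.0892) and with no FPKM minimum (adjusted p = 0.0877), and Calr was called without WT 4 (log2 fold change -0.31, adjusted p = 0.0335). Markers of other cell types moved as well. The sum of 4 endothelial markers was between 199.3 and 228.9 CPM in WT and 346.7 and 392.0 CPM in TRACK, that of 4 fibroblast markers between 74.4 and 86.9 CPM in WT and 129.4 and 253.2 CPM in TRACK, and that of 4 podocyte markers between 290.5 and 400.6 CPM in WT and 469.6 and 483.4 CPM in TRACK. Of the 8 thick ascending limb and distal markers 6 were lower in TRACK. The proximal tubule sum was lower, with 5 of its 10 markers called lower and 1, Slc22a6, called higher (log2 fold change 0.73). The part of these cell types in the differences was not tested.

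GCERAdT over TRACK compares the libraries labelled as Atf4 knockout in the cancer model with those of the model alone. Herpud1 fell by 0.95 on the log2 scale (standard error 0.10, 95% interval -1.16 to -0.73, adjusted p = 0.0008), which is a level of 0.519 of that in TRACK. Dnajb9 fell by 0.46 (standard error 0.10, adjusted p = 0.0276). These were 2 of the 10 genes, both lower, against 7.09% of 11928 genes tested, 2.81% higher and 4.28% lower; DESeq2 called 2 as well. Hspa5 was at -0.22 (standard error 0.09, adjusted p = 0.168) and Atf6 at -0.13 (adjusted p = 0.323), both with groups that did not overlap; 4 of the 10 genes had no overlap, against 22.9% of genes. The median of the 10 values was -0.12, against 0.01 for all genes tested. Calr was at 0.16, Hsp90b1 at 0.04, Atf6b at 0.08 and Ern1 at 0.06, and none of these passed. The fall of Herpud1 was between 0.90 and 1.02 in size when any 1 library was left out, with adjusted p of at most 0.00619, and -0.92 among only the libraries of the higher pseudogene range (adjusted p = 0.024). Dnajb9 no longer passed in that fit (log2 fold change -0.33, adjusted p = 0.111), nor without TRACK 1, 2 or 3 or GCERAdT 1 or 2, with adjusted p of up to 0.0939. Between TRACK and GCERAdT the sums of endothelial markers (296.3 to 323.4 CPM in GCERAdT) and podocyte markers (314.3 to 393.9 CPM in GCERAdT) did not overlap, both lower in GCERAdT, whereas the proximal tubule sums overlapped. The sum of 5 adipocyte markers was between 48.1 and 141.2 CPM in TRACK and between 42.3 and 69.2 CPM in GCERAdT, where Retn had no count. Fabp4 weighed most in this sum, with 47.4 to 98.1 CPM in TRACK and 42.1 to 69.0 CPM in GCERAdT. Adipoq and Cfd had TRACK medians of 0.10 and 0.52 CPM and highest values of 7.99 and 51.1 CPM, so each was high in only 1 TRACK library. The part of these cells in the lower Herpud1 and Dnajb9 was not tested.

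GCERAdT over GCERAd compares the cancer model with mice without it, both labelled as Atf4 knockout. Atf4 itself was higher in GCERAdT, by 0.52 on the log2 scale (standard error 0.11, edgeR's adjusted p = 0.0108), with no overlap. Herpud1 was the only 1 of the 10 genes called, against 19.2% of 11816 genes tested, 9.39% higher and 9.79% lower. It fell by 0.65 on the log2 scale (standard error 0.13, adjusted p = 0.0067), with no overlap, which was the case for 1 of the 10 genes and for 19.5% of genes tested. Atf6b was at -0.32 (standard error 0.14, adjusted p = 0.141). Here samples of the same number deviated from their group means together. Numbers 1 to 4 also fall in the same pseudogene range in both groups, so a pairing of mice and that range cannot be told apart. With the number as a replicate block in edgeR, Herpud1 was at -0.59 (adjusted p = 0.0023) and Atf6b was called too, at -0.37 (adjusted p = 0.0241). The genes called over the whole table went from 2266 to 3770 with this block. Without GCERAd 4 and 5, 5 of the 10 genes were called, all lower in GCERAdT: Herpud1 (-0.46), Atf6b (-0.49), Calr (-0.39), Hspa5 (-0.27) and Hsp90b1 (-0.26). Among only libraries of the higher pseudogene range none was called, with Herpud1 at -0.72 (adjusted p = 0.096). The proximal tubule sum was lower in GCERAdT than in GCERAd, and the endothelial sum was between 221.1 and 259.2 CPM in GCERAd, below that of GCERAdT; their part was not tested.

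The difference between contrasts, GCERAdT over TRACK minus GCERAd over WT, was tested over all 17 samples. It was -1.05 for Herpud1 (standard error 0.17, 95% interval -1.41 to -0.69, adjusted p = 0.0004), the only 1 of the 10 genes called, against 25.1% of 12208 genes tested, 12.3% higher and 12.8% lower. Dnajb9 was at -0.54 (standard error 0.21, adjusted p = 0.0645) and Atf6 at -0.18 (standard error 0.08, adjusted p = 0.11), and both passed with DESeq2. The difference for Herpud1 was -0.89 without GCERAd 4 and 5 (adjusted p = 0.0004). Among the libraries of the higher pseudogene range it was -1.06, a value that rests on WT 2 as the only WT library. Since WT differs from the other groups in sex-linked genes, this difference carries that confounding. The comparisons share samples: TRACK values enter TRACK over WT, where Herpud1 was at 0.42, as well as GCERAdT over TRACK, where it was at -0.95.

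**Figure D3:**
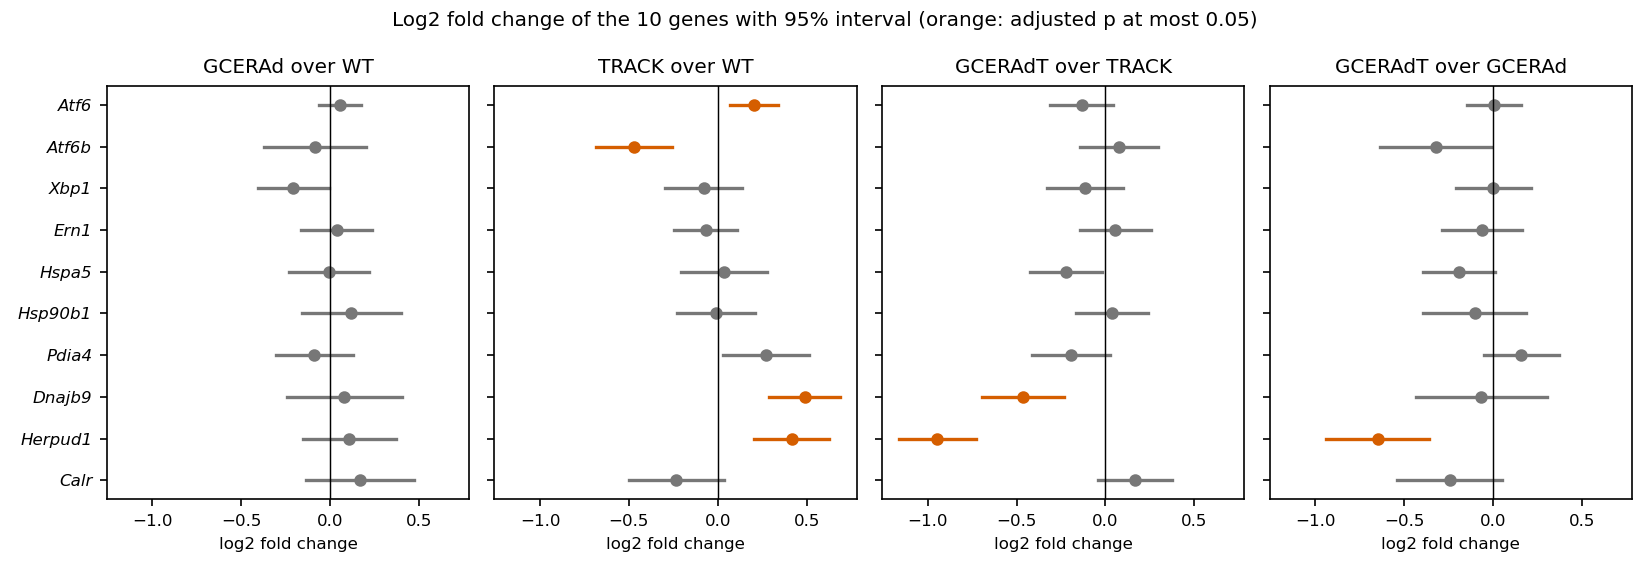
Log2 fold change of the 10 genes in the 4 comparisons (points) with the 95% interval (lines); orange marks an adjusted p of at most 0.05. No gene is orange for GCERAd over WT, 4 are for TRACK over WT, Herpud1 and Dnajb9 are for GCERAdT over TRACK (-0.95 and -0.46), and Herpud1 alone is for GCERAdT over GCERAd (-0.65).

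Other genes moved with Herpud1 across the groups, and their part in its difference was not tested. Fkbp5, a target of the glucocorticoid receptor, was between 217.2 and 298.7 CPM in TRACK and between 44.6 and 106.1 CPM in GCERAdT, and fell by 2.09 on the log2 scale (standard error 0.29, adjusted p = 0.0038). Within GCERAd it had 217.2 and 211.4 CPM in mice 4 and 5, where Herpud1 and Dnajb9 were high, and 76.1, 49.4 and 51.1 CPM in mice 1 to 3. Tsc22d3, also a glucocorticoid target, was between 75.4 and 89.9 CPM in TRACK and between 28.0 and 33.5 CPM in GCERAdT. Its split within GCERAd was weaker, with 48.1 and 80.3 CPM in mice 4 and 5 and 37.5, 38.8 and 44.7 CPM in mice 1 to 3. Dbp, an output gene of the circadian clock, was between 94.5 and 109.1 CPM in TRACK and 8.91 and 14.9 CPM in GCERAdT, while Arntl, of the opposite phase, was between 2.29 and 4.77 CPM in TRACK and 13.98 and 20.1 CPM in GCERAdT. These genes were named after their values had been seen. Dbp, unlike Fkbp5, was high in all 5 GCERAd mice, between 78.1 and 137.4 CPM, against 41.2 to 59.6 CPM in WT. The time of day of collection is not given in the sources used here.

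**Figure D4:**
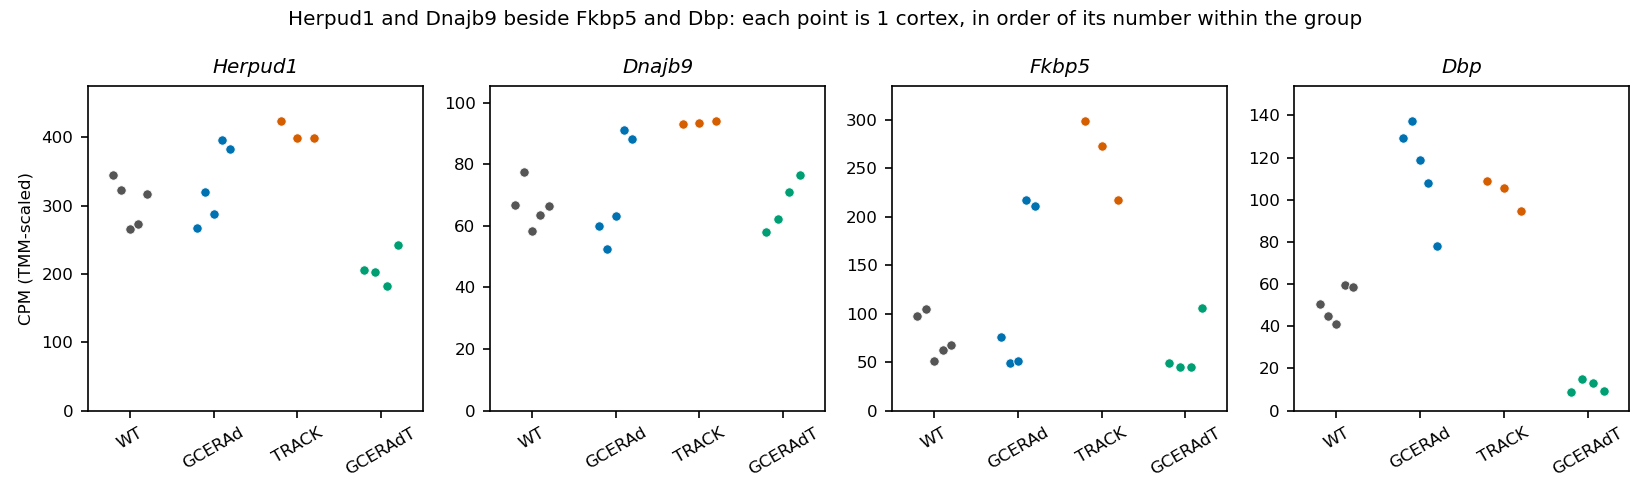
CPM of Herpud1, Dnajb9, Fkbp5 and Dbp in every cortex (points, in the order of the sample number within each group); each panel has its own linear axis from 0. In GCERAdT all 4 points of Herpud1, Fkbp5 and Dbp lie below those of TRACK, and GCERAd 4 and 5 lie near TRACK for Herpud1, Dnajb9 and Fkbp5.

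Genes of the PERK branch, to which Atf4 belongs, were called by edgeR in each of the 4 comparisons. In GCERAdT over TRACK this was only 1 gene, tested through TRACK alone. A gene enters a comparison when its mean reaches 1 FPKM in either group, so a gene that does so only in the group where it is high is bound to be higher there, and counts without such genes are given as well. The 10 genes reached the minimum in both groups of every comparison. In GCERAd over WT, 5 of 7 tested were called, 2 higher and 3 lower. One of the lower genes is Atf4, the targeted gene, so its call follows from the design and is no result about the branch. The other lower genes were Ppp1r15a, which encodes the eIF2α phosphatase subunit GADD34 (log2 fold change -0.40), and Eif2ak3, the gene of PERK itself (-0.28). Eif2s1 (0.32) and Ppp1r15b (0.19) were the 2 higher ones. In TRACK over WT, 6 of 10 were higher and 1 lower, with the pseudokinase gene Trib3 at 3.93 (standard error 0.25), Chac1, which encodes a glutathione-degrading enzyme, at 3.57 (standard error 0.55) and the transcription factor gene Atf3 at 1.76 (standard error 0.37). These 3 were below the minimum in WT (Trib3 at 0.48, Chac1 at 0.17 and Atf3 at 0.50 FPKM) and were tested only through TRACK; of the 7 genes at the minimum in both groups, 3 were higher and 1 lower. In GCERAdT over TRACK edgeR called 1 of 10, Chac1, which fell by 1.16 (standard error 0.29, adjusted p = 0.0436) and reached the minimum only in TRACK. Of the 9 genes at the minimum in both groups, edgeR called none. Over all 10, DESeq2 called 2, and 4 had an unadjusted p of at most 0.05. In GCERAdT over GCERAd, 5 of 9 were higher and 1 lower, with Trib3 at 4.73, Atf3 at 1.23 and Ddit3, which encodes CHOP, at 0.91. Trib3 and Atf3 were tested there only through GCERAdT, and of the 7 genes at the minimum in both groups 3 were higher and 1 lower. Here and below, the background shares are those given for each comparison above.

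The relatives and processing enzymes of the sensors and the other chaperones moved in both directions. Among 10 tested genes of sensor processing and relatives, 1 was higher and 2 lower in GCERAd over WT, 1 higher and 4 lower in TRACK over WT, none in GCERAdT over TRACK by edgeR (4 had an unadjusted p of at most 0.05, and DESeq2 called 1), and 1 higher and 1 lower in GCERAdT over GCERAd. Creb3l1, an ER-anchored transcription factor cut like ATF6, fell by 1.37 (standard error 0.28) in GCERAd and by 1.41 (standard error 0.28) in TRACK, both against the same WT samples. Of the other ER chaperones and co-chaperones, 3 were higher and 3 lower of 31 in GCERAd over WT, and 6 higher and 7 lower of 32 in TRACK over WT, where 1 of the higher genes, Cdnf, was tested only through TRACK. In GCERAdT over TRACK edgeR called 1 of 33 and DESeq2 3, with 5 at an unadjusted p of at most 0.05. The gene edgeR called was Hyou1, a nucleotide exchange factor of BiP, which fell by 0.37 (standard error 0.09, adjusted p = 0.0472), and in GCERAdT over GCERAd edgeR called 1 of 32, the glucosidase gene Ganab (-0.24), and DESeq2 2. Sdf2l1, a partner of ER Hsp40 proteins, was lower in GCERAd (-0.54) and in TRACK (-0.52) than in WT.

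Among the redox enzymes Ero1l had the largest changes in TRACK over WT and in GCERAdT over GCERAd. Ero1l, which reoxidises protein disulfide isomerases and is known to be induced by hypoxia, was higher by 1.67 (standard error 0.16) in TRACK over WT and by 2.41 (standard error 0.08) in GCERAdT over GCERAd. In TRACK over WT, 4 of 17 oxidoreductases were higher and 3 lower, with Qsox1 at 0.68 and P4hb at 0.59 beside Ero1l. In GCERAd over WT none was higher and 4 of 17 were lower, led by Txndc16 (-0.59) and Txndc5 (-0.57). In GCERAdT over TRACK, edgeR called Txndc11 (-0.48) and Qsox1 (-0.40), both lower, and DESeq2 called 3, with 5 at an unadjusted p of at most 0.05. Ero1l had the largest value of the list there and missed the threshold, at 0.69 (standard error 0.18, adjusted p = 0.0508 by edgeR). In GCERAdT over GCERAd, 3 were higher and 1 lower. With all libraries, Pdia4 was called by edgeR in none of these, and by DESeq2 in TRACK over WT as given above.

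Of the ER-associated degradation factors, the group in which Herpud1 acts, 8 of 30 were higher and 1 lower in GCERAd over WT, with Edem1, which directs misfolded glycoproteins to degradation, at 0.69 (standard error 0.10). In TRACK over WT, 7 of 31 were higher and 2 lower. None of the 31 other factors was called by edgeR in GCERAdT over TRACK, in which Herpud1 fell; 1 had an unadjusted p of at most 0.05, and DESeq2 called 1. In GCERAdT over GCERAd, 1 of 31 was higher and 4 were lower, including Edem1 (-0.53) and Rnf5 (-0.46). Derl3 was 1 of the 7 higher in TRACK over WT, at 3.08 (standard error 0.47), and the 1 higher in GCERAdT over GCERAd. It was at 0.18 FPKM in WT and 0.19 FPKM in GCERAd and was tested in both only through the other group; without it 6 of 30 were higher and 2 lower in TRACK over WT, and edgeR called 4 of 30 in GCERAdT over GCERAd, all lower. Derl3 is also a plasma cell marker: the summed level of 5 plasma cell markers was at most 21.9 CPM in WT and 28.5 CPM in GCERAd, and between 61.98 and 200.04 CPM in TRACK and 126.7 and 211.9 CPM in GCERAdT, and its part in the higher Derl3 was not tested. Jchain, the most abundant of these markers in TRACK and GCERAdT, was at most 5.53 CPM in WT and between 36.5 and 170.1 CPM in TRACK. In WT the most abundant was Sdc1, between 14.6 and 16.8 CPM, and Tnfrsf17 was at most 0.14 CPM there. Secretory plasma cells are known to express many ER genes. Of the ER import machinery, 5 of 31 were higher and 1 lower in GCERAd over WT, 9 of 31 higher and 4 lower in TRACK over WT, and Tram2, a translocon-associated protein gene, was the 1 that edgeR called in GCERAdT over TRACK (0.60) and in GCERAdT over GCERAd (0.97). DESeq2 called 4 and 2 there, with 7 and 3 at an unadjusted p of at most 0.05.

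Genes with an ERSE or ERSE-II in the window were few. There were 49 such genes in RefSeq, of which 22 were tested in GCERAd over WT and 23 in the other comparisons. Called were 2 in GCERAd over WT, 4 in TRACK over WT, 1 in GCERAdT over TRACK and 2 in GCERAdT over GCERAd. These were 9.09%, 17.4%, 4.35% and 8.70% of those tested, against 27.6%, 45.6%, 7.09% and 19.2% of all genes tested. Herpud1 was the 1 in GCERAdT over TRACK, and Herpud1 and Derl3 were the 2 in GCERAdT over GCERAd. Derl3 was also among the 4 in TRACK over WT. In both comparisons Derl3 was tested only through the group where it is high. Of the 3 chaperone genes with ERSE shown above, neither edgeR nor DESeq2 called any in the 4 comparisons with all libraries and no block, and by edgeR only Hspa5 in GCERAdT over TRACK had an unadjusted p of at most 0.05. With libraries left out, as given above, each of the 3 was called in at least 1 comparison.

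Within groups, after the mean of each group had been removed from log2 CPM, the genes fell into sets that varied together between mice. Over 17 samples Hspa5 had a Pearson r of 0.86 with Hsp90b1 and 0.88 with Calr, and Hsp90b1 had 0.87 with Calr. Pdia4 had an r of 0.47 with Hspa5, which was 0.81 over the 15 samples without GCERAd 4 and 5, and 0.95 with Calr over those 15. Dnajb9 and Herpud1 had an r of 0.70 with each other and of -0.34 and -0.32 with Hspa5. Without GCERAd 4 and 5 the r between Dnajb9 and Herpud1 was 0.32, so that much of it rested on those libraries, while the chaperones kept 0.87 (Hspa5 with Hsp90b1) and 0.85 (Hspa5 with Calr). Atf6b and Dnajb9 varied in opposite directions (r = -0.93 over 17 samples, -0.81 over 15). These are descriptions over points that share libraries, and no test was made.

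The 5 genes whose pattern was most like that of Hspa5 over the 17 samples, among genes of at least 5 FPKM, were Ugt3a1 (r = 0.88), Calr (0.88), Hsp90b1 (0.86), Pde6d (0.85) and Atp1b3 (0.83). Calr and Hsp90b1 thus ranked 2 and 3 of all such genes, while Xbp1 ranked 220 (r = 0.54) and Pdia4 398.

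**Figure D5:**
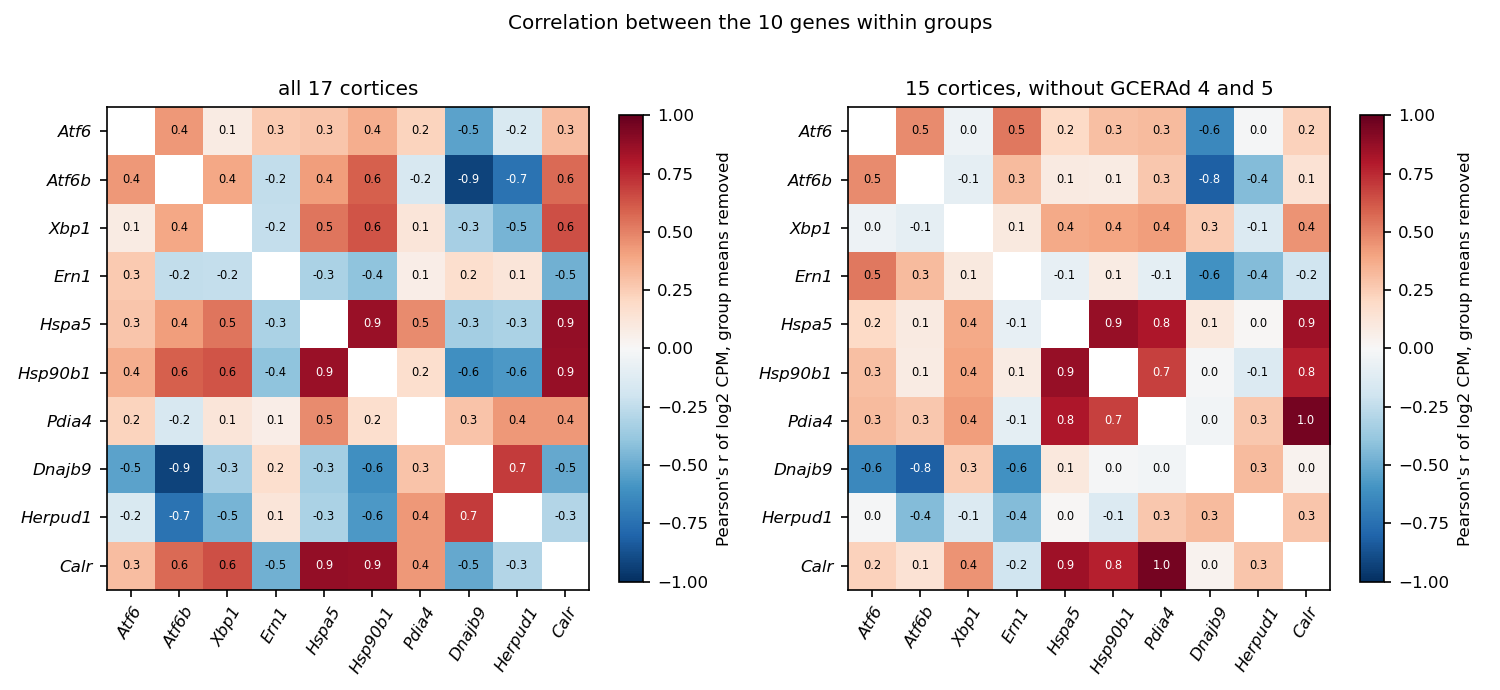
Pearson's r between each pair of the 10 genes from log2 CPM with group means removed, over all 17 cortices (left) and over the 15 without GCERAd 4 and 5 (right); red is positive and blue negative. Hspa5, Hsp90b1 and Calr form a red block in both maps, joined by Pdia4 on the right, and Dnajb9 with Herpud1 is at 0.70 on the left and 0.32 on the right.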

How the data were processed

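RNA from 17 kidney cortices was sequenced after TruSeq Stranded mRNA library preparation, with bcl2fastq 2.20, Cutadapt, STAR (GRCm38) and HTSeq used by the authors. The deposited values are read counts per gene without normalization; the annotation release, the strand setting and the treatment of reads with several matches are not given in the sources used here. All 17 columns carried the names of the samples, and groups came from the labels. The 10 genes, the pathway lists, the markers and the tests were chosen with earlier results of these data known.

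In R 4.3.3, each comparison was fitted to its own groups with edgeR 4.0.16 (TMM scaling, quasi-likelihood F test), over genes with a mean of at least 1 FPKM in either group, from merged exon lengths of GENCODE M21 (48435 genes with a length, 360 without). The difference between contrasts used all samples. A gene was called at an adjusted p (Benjamini-Hochberg) of at most 0.05 over all genes tested. Standard errors were taken from the log2 fold change and its F statistic, and 95% intervals from the t distribution with the degrees of freedom of the fit. Named genes are the 10, Atf4, sex-linked genes, at most 3 called genes each way per list and the 5 most like Hspa5; clock, glucocorticoid and plasma cell genes were added after values were seen. The p-values measure the spread between libraries, which the labels number as mice. The procedure was tested on simulated counts.

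Sample numbers were checked for pairing by the correlation of deviations from group means. For GCERAdT over GCERAd all 4 pairs were above 0.1 (r from 0.40 to 0.57), so the fit with the number as a block is given for it. The labels give no shared litter or day, and numbers 1 to 4 fall in the same pseudogene range in both groups. A pairing of mice and that range therefore cannot be told apart. Alternatives were DESeq2 1.42.0, RLE scaling, other or no FPKM minimum, all samples in 1 fit, the replicate block, the pseudogene range as a covariate, summing of WT 1 with 2 and GCERAd 2 with 3 (possible repeats named from earlier results of these data, which the labels do not tie to 1 mouse), and each library left out; leaving out GCERAd 4 and 5 and using only 1 pseudogene range were chosen after seeing the data. Promoters came from RefSeq GRCm38.p6.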

Additional observations from a re-analysis of the deposited data

Results flagged for a closer look

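The difference between contrasts of Herpud1 is shown because it passed a test of the difference itself. It was -1.05 on the log2 scale (standard error 0.17, adjusted p = 0.0004, edgeR), from -0.95 in GCERAdT over TRACK and 0.11 in GCERAd over WT. All 4 GCERAdT samples were below all 3 TRACK samples. For Atf4 itself the same difference was 0.55 (standard error 0.16, adjusted p = 0.021, edgeR). For Fkbp5 and Dbp it was -2.72 and -4.29, and their part in the difference of Herpud1 was not tested. WT also differs from the other groups in sex-linked genes, and the difference carries that confounding.

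Calr in GCERAdT 4, at 448.9 CPM, stood apart from the other samples of its group, of which the nearest had 380.7 CPM. It was the only 1 of 30 sets of values (10 genes in the 3 groups of 4 or 5 samples) in which a sample stood apart by Dixon's criterion, which chance meets in about 1 of 20.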

How the results depend on the processing

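Over 970 values of the 10 genes under the alternatives, 81 had the other sign, at most 0.278 in size; no gene was called there, either in the reported fit or in the alternative. With the sample number as a replicate block, for pairing, the genes called were 2106 for GCERAd over WT, 3431 for TRACK over WT and 3770 for GCERAdT over GCERAd; of the 10 genes 2 were called for GCERAdT over GCERAd (Herpud1 and Atf6b) and 2 for the difference between contrasts. For TRACK over WT the block left 4 called, but Atf6 was lost (adjusted p = 0.135) and Calr was called, lower (adjusted p = 0.0414). Outside GCERAdT over GCERAd no pair of numbers correlated above 0.1, and samples there share only a number. The lowest r was -0.61, for number 2 of GCERAd over WT, where the libraries are of different pseudogene ranges. With the pseudogene range as a covariate, 0 of the 10 were called for TRACK over WT (2776 genes in all), 1 for GCERAdT over TRACK (462 genes), 2 for GCERAdT over GCERAd and 2 for the difference. Among only libraries of the higher range, with fewer samples, 0 were called for TRACK over WT (1475 genes), 1 for GCERAdT over TRACK (221 genes), 0 for GCERAdT over GCERAd (349 genes) and 0 for the difference, and 98 genes for GCERAd over WT. DESeq2 called 1562 genes for GCERAdT over TRACK and 3 of the 10 for the difference. With all 17 samples in 1 fit, 1 of the 10 was called for GCERAdT over TRACK; with libraries summed, 2 were for the difference. Without GCERAd 4 and 5, 1 was called for GCERAd over WT and 5 for GCERAdT over GCERAd.

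With 1 library left out at a time, 0 of the 10 genes were called for GCERAd over WT (2477 to 3246 genes in all), 3 to 5 for TRACK over WT (4101 to 6041), 1 to 2 for GCERAdT over TRACK (379 to 1424), 1 to 2 for GCERAdT over GCERAd (1427 to 2336) and 1 to 2 for the difference (2205 to 3303). For GCERAdT over TRACK the lowest count was without GCERAdT 2 and the highest without GCERAdT 4. The cause of these shifts was not tested. The summing of libraries was not run for GCERAdT over TRACK, which has none of them.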
